A study of Mus musculus with 8 samples.

Results

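Atf3 and 8 further genes of the integrated stress response were followed through arrays of mouse CD4 T cells with and without Bcl6. The 8 are Atf4, Ddit3, Trib3, Chac1, Asns, Psat1, Ddit4 and Sesn2. Bcl6 is a transcriptional repressor that promotes the follicular helper T (Tfh) cell fate. The 9 genes are 9 of 19938 that the arrays name, and of 11926 that could be tested. They were chosen by name, with earlier results of these arrays known. Where a gene had several probe sets, the one with the highest mean over all 8 arrays was to stand for it, but each of the 9 genes had a single one, so no member's value was selected on signal. Because Atf3 names the set, its own difference between genotypes is given as a description of these arrays and not as independent evidence.

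The arrays came from sorted naive CD4 T cells of wild-type mice (WT, 4 arrays) and of mice with a conditional Bcl6-/- deletion restricted to T cells (KO, 4 arrays). Cells of both groups spent 24 hours in culture under anti-CD3 and anti-CD28 stimulation, with blocking antibodies to IL-4, IFNg and TGFb, and with IL6 and IL21, so every value below belongs to activated cells and none to a resting state. The Cre driver, the age of the mice and whether each array came from a separate mouse are not given in the sources used here, and the p-values therefore reflect variation among these samples only, some of which may be technical. All values are log2 probe-set signals from Affymetrix whole-transcript arrays, differences are KO minus WT on that scale, and the number of arrays limits the precision.

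The integrated stress response is a common answer to amino acid shortage, misfolded protein in the endoplasmic reticulum, haem shortage and double-stranded RNA. Each of these activates a kinase that phosphorylates the initiation factor eIF2 alpha, which lowers general translation but raises translation of a few messages, above all that of the transcription factor ATF4. ATF4 then switches on genes for amino acid synthesis and uptake, tRNA charging and redox balance, and the further factors CHOP (encoded by Ddit3) and ATF3. Since ATF4 is controlled largely at translation, the level of its message is not a measure of its activity. Activated T cells grow fast and draw on the same amino acid programme, and ATF3 is also induced in many cells by signals outside the stress response.

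T cell marker genes were high and alike in both groups, with a mean over 7 genes of 12.59 to 12.71 in the WT arrays and 12.64 to 12.67 in the KO arrays. The mean of 7 activation and Tfh-like markers ran from 10.95 to 11.05 and from 10.90 to 11.04. All 7 myeloid genes and 4 of the 5 measured B cell genes were under the detection filter. Both CD8 genes passed it, with a list mean of 8.29 to 8.74 in the WT and 8.35 to 8.60 in the KO arrays, as did 1 B cell gene, 1 erythroid gene and the NK and cytotoxic cell gene Nkg7, while the other 3 NK genes did not. The mean of the 4 NK genes did not overlap between the groups (6.48 to 6.79 in the WT and 6.24 to 6.46 in the KO arrays). Since 3 of these 4 were under the filter in every array, that mean does not describe the NK genes as a set. Nkg7 itself differed by -0.89 ± 0.233 (SE, adjusted p = 0.0947), with 10.05, 10.79, 10.91 and 9.95 in the WT and 9.11, 9.55, 9.58 and 9.89 in the KO arrays, and its part in the results below was not tested. No marker of any cell type was called. The signal of Bcl6 itself was higher in the arrays labelled KO (9.15 ± 0.0497, SD, n = 4) than in those labelled WT (8.77 ± 0.123), a difference of 0.38 ± 0.0645 (SE) with limma's adjusted p = 0.0303. That call was lost in 5 of the 8 fits that leave out 1 array, all but those without WT replicate 1, WT replicate 2 or KO replicate 1 (adjusted p up to 0.11), and also without the filter on dim genes (0.0595) and with a replicate block (0.0606). Where its probes lie relative to the deleted exons was not analysed here, so Bcl6 does not check the labels and all directions are as labelled. KO replicate 1 stood apart: its median deviation from its group was 0.115, against 0.04 to 0.0725 in the other KO arrays, and its highest correlation was with an array of the other group, WT replicate 3.

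Atf3, a stress-induced bZIP factor that often acts as a repressor, rose in the KO arrays. Its signal was 7.48, 7.68, 8.02 and 7.80 in the 4 WT arrays and 8.46, 8.61, 8.42 and 8.58 in the 4 KO arrays. Every KO array lay above every WT array, with a gap of 0.40 between the groups. The WT arrays were also more spread out than the KO arrays, over a range of 0.54 against 0.19. The difference was 0.77 ± 0.103 (SE), a 1.71-fold higher signal with a 95% confidence interval of 1.46 to 2.0. With limma's test adjusted over all 11926 genes its p was 0.0099, the 26th smallest p, and only 0.159% of tested genes had a larger difference in either direction. Leaving out any 1 array kept the difference between 0.68 and 0.86 and the adjusted p at 0.048 or below. Fewer cells of a type and less RNA per cell cannot be told apart in such bulk samples.

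The promoter of Atf3 is shown because it holds the motif most closely tied to ATF4. In RefSeq's GRCm38.p6 the interval from 250 bases before to 50 bases after the annotated start is chr1:191183284-191183583 on the minus strand, printed 5′ to 3′ along the gene with the match in capitals.
Atf3 promoter: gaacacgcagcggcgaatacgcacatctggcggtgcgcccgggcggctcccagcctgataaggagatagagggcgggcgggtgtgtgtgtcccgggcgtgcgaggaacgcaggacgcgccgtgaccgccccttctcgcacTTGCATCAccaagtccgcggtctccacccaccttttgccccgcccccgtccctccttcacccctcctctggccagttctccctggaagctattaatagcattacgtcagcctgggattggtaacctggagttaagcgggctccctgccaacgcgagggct
The capitals mark the reverse complement of TGATGNAA, the core of the C/EBP-ATF response element (CARE) to which ATF4 binds as a dimer with a C/EBP partner. It begins at position -110, with the annotated start counted as 1 and the base before it as -1.

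Among the 9 genes, 1 was called, where 1.32% of all tested genes were called (157, of which 77 were higher and 80 lower). The groups did not overlap in 3 of the 9, namely Atf3, Chac1 and Ddit4, against 10.8% of all tested genes. The median difference of the 9 was 0.07 against -0.02 over all tested genes, and 6 of them (66.7%) had a positive difference, against 41.1% of all tested genes. The Atf3 difference was therefore not shared by the set at a comparable size: the other 8 genes lay between -0.12 and 0.28.

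**Figure D1:**
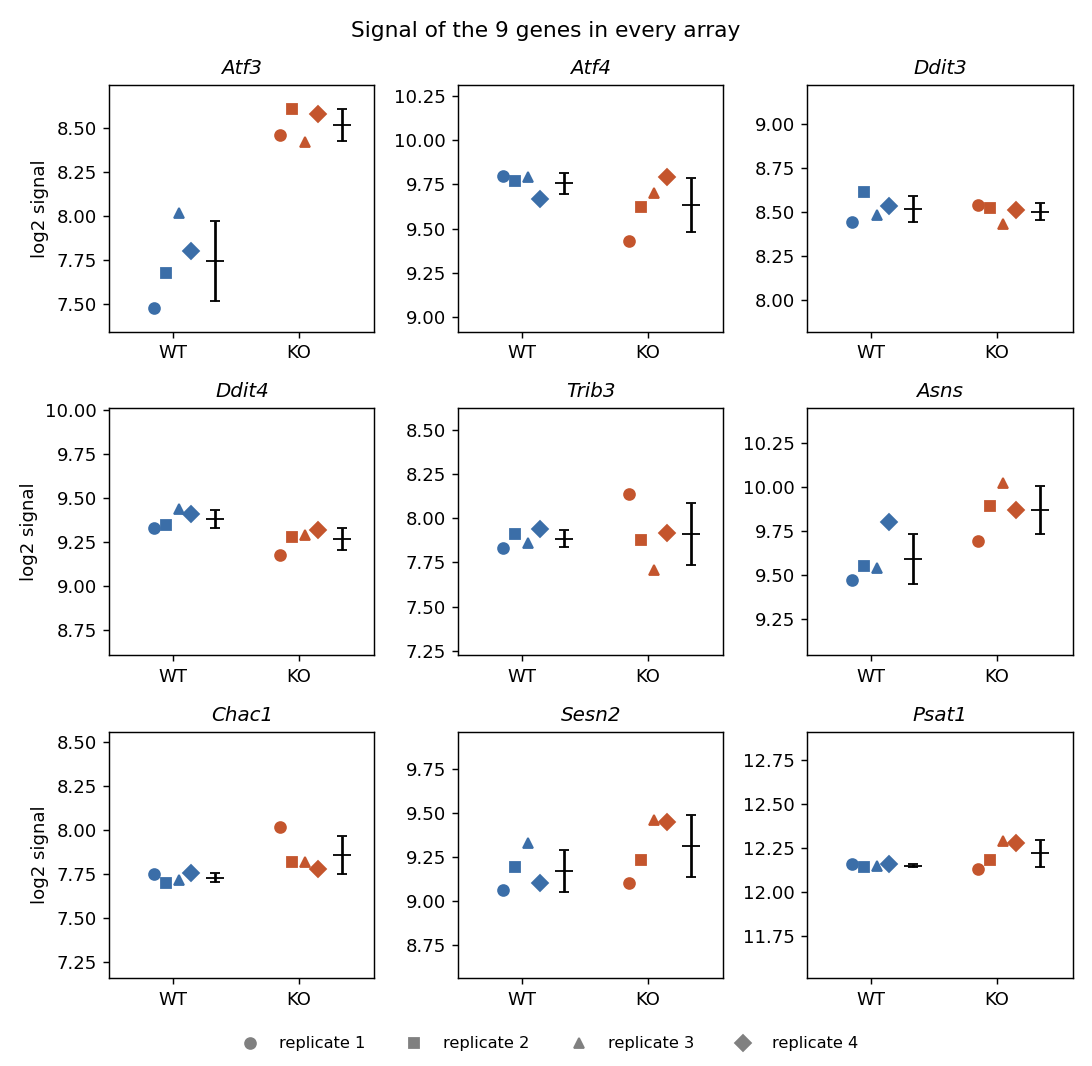
Log2 signal of each of the 9 genes in the 4 WT and 4 KO arrays (points), with bars for the mean ± SD of each group and all panels spanning the same height in log2 units. Atf3 is the panel in which the groups are clearly apart, with a gap of 0.40, while Chac1 and Ddit4 are apart by 0.02 and 0.01.

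Atf4, the factor that carries the response, read 9.80, 9.77, 9.79 and 9.67 in the WT arrays and 9.43, 9.62, 9.70 and 9.79 in the KO arrays. The groups overlapped, and KO replicate 1 gave the lowest of the 8 values. The difference was -0.12 ± 0.0748 (SE), with a 95% interval of -0.29 to 0.04 and limma's adjusted p = 0.472. Without KO replicate 1 it was -0.05. The interval therefore reaches at most a 1.03-fold higher Atf4 message in the KO arrays.

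Ddit3 encodes CHOP, the partner of ATF4 that promotes cell death when stress persists. Its signal was 8.44, 8.61, 8.48 and 8.53 in the WT arrays and 8.54, 8.52, 8.43 and 8.51 in the KO arrays. All 8 values fell within 0.18 of one another and the groups lay on top of each other. The difference was -0.02 ± 0.0514 (SE, adjusted p = 0.934), and its interval covers ratios of KO to WT from 0.914 to 1.07. A change of the size seen for Atf3 lies outside it.

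Trib3, a pseudokinase induced by ATF4 and CHOP that restrains ATF4 in turn, read 7.83, 7.91, 7.86 and 7.94 in the WT arrays. In the KO arrays it read 8.14, 7.88, 7.71 and 7.92. The highest and the lowest value were both KO arrays, and the highest was KO replicate 1. The difference was 0.03 ± 0.0813 (SE, adjusted p = 0.924) with that array and -0.05 without it.

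Chac1 encodes an enzyme that breaks down glutathione and is a target of ATF4. Its signal was 7.75, 7.70, 7.72 and 7.76 in the WT arrays and 8.02, 7.82, 7.82 and 7.78 in the KO arrays. Every KO array was above every WT array, but the gap was 0.02 and KO replicate 1 stood 0.20 above the next KO array. The difference was 0.13 ± 0.0581 (SE) with an adjusted p of 0.309, and it dropped to 0.07 without KO replicate 1 (adjusted p = 0.264). The exact permutation test of 4 against 4 arrays gave Chac1 a two-sided p of 0.0286, the smallest that this design allows and one that every gene without overlap receives.

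Asns, asparagine synthetase, is the classical target of ATF4 in amino acid shortage and came closest to Atf3. Its WT values were 9.47, 9.55, 9.54 and 9.80, and its KO values were 9.69, 9.89, 10.02 and 9.87. The groups overlapped through 1 array of each, the highest WT array (replicate 4) and the lowest KO array (replicate 1). The difference was 0.28 ± 0.0863 (SE), or 1.21-fold with a 95% interval of 1.06 to 1.39, and did not pass after adjustment (adjusted p = 0.146). Without KO replicate 1 the difference was 0.34 and passed (adjusted p = 0.0343), at a setting in which 6.56% of all tested genes were called. With limma's array weights, which gave that array the lowest weight, it was 0.38 (adjusted p = 0.00354), but with a single other array left out the adjusted p reached up to 0.352.

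Psat1 makes phosphoserine, the step before serine, and is also under ATF4. It read 12.16, 12.14, 12.15 and 12.16 in the WT arrays, a spread of 0.02, and 12.13, 12.18, 12.29 and 12.28 in the KO arrays. KO replicates 3 and 4 were above all WT arrays, KO replicate 2 just above them and KO replicate 1 below them. The difference was 0.07 ± 0.0491 (SE, adjusted p = 0.566), and 0.10 without KO replicate 1 (adjusted p = 0.181).

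The last pair of genes restrains the growth kinase complex mTORC1. Ddit4 (REDD1), which acts through the TSC complex, was 9.33, 9.35, 9.44 and 9.41 in the WT arrays and 9.18, 9.28, 9.29 and 9.32 in the KO arrays. All KO arrays lay below all WT arrays, by a gap of 0.01. The difference was -0.12 ± 0.0493 (SE) and did not pass (adjusted p = 0.278; exact permutation p = 0.0286), and its sign was opposite to that of Atf3.

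Sesn2, a leucine sensor that acts through the GATOR complexes, was 9.06, 9.19, 9.33 and 9.10 in the WT arrays and 9.10, 9.23, 9.46 and 9.45 in the KO arrays. KO replicates 3 and 4 exceeded every WT array, while KO replicates 1 and 2 lay among them. The difference was 0.14 ± 0.0914 (SE, adjusted p = 0.511), and 0.21 without KO replicate 1 (adjusted p = 0.123).

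**Figure D2:**
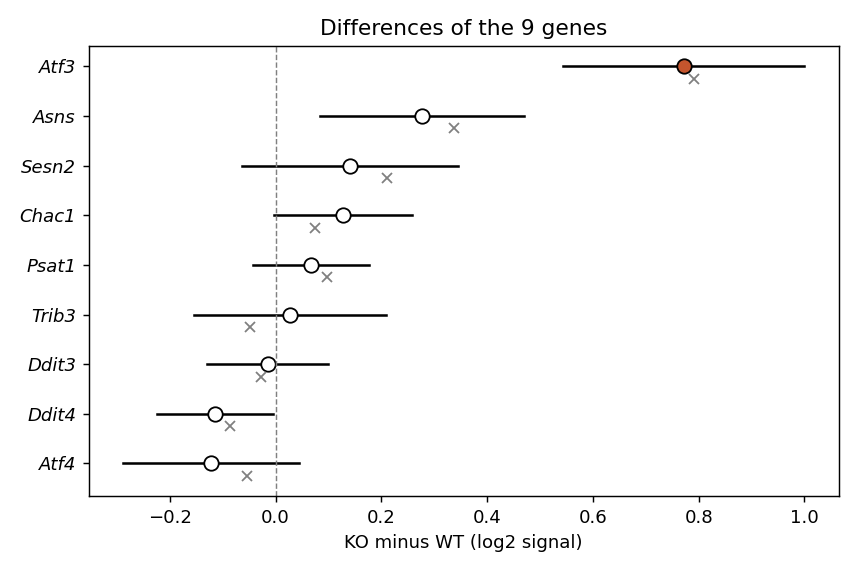
Difference KO minus WT in log2 units for each of the 9 genes (circles, filled where limma's adjusted p is under 0.05), with 95% confidence intervals as lines and grey crosses for the difference without KO replicate 1. Atf3 at 0.77 is the only filled circle, and the intervals of 6 genes cross 0.

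KO replicate 1 was the lowest KO array for 5 of the 9 genes (Atf4, Ddit4, Asns, Sesn2 and Psat1) and the highest for 3 (Ddit3, Trib3 and Chac1). For Atf3 it was neither. Its part in the results of the other genes beyond the values without it was not tested.

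Set directly against Atf3 array by array, the difference of each other gene was smaller by 0.50 (Asns) to 0.90 (Atf4). The Atf3 difference exceeded that of Asns by 0.50 ± 0.140 (SE), and the groups of array-wise Atf3 minus Asns values overlapped. For the other 7 genes it was larger by at least 0.63 ± 0.123 (SE, Sesn2), and in each of these 7 the groups did not overlap. Atf3 was known to differ when the genes were put together, and its own groups lay 0.40 apart. Lack of overlap against a gene of small difference was thus largely fixed beforehand. This comparison was not among those planned, so its values only describe the arrays and no p-value is given for them.

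Promoters of the 9 genes were searched on both strands for 4 motifs. The CARE core TGATGNAA was present in 4 of the 9 (Atf3, Asns, Chac1 and Trib3), against 4.51% of 27025 genes in the promoter table. Known targets of ATF4 were among the genes chosen, so this excess follows in part from the choice and was not tested. The sites are printed with their flanks, 5′ to 3′ along each gene with the match in capitals. They are shown because these genes share the motif, and its part in any difference between genotypes was not tested.
Atf3: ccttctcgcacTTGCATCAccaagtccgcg
Asns: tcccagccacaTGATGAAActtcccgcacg
Chac1: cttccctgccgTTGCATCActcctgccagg
Trib3: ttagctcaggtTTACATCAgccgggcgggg
The matches begin at -110 in Atf3, -23 in Asns, -193 in Chac1 and 15 in Trib3, and in Atf3 and Chac1 the 8 bases are identical. The Asns promoter is chr6:7693160-7693459 (minus strand), that of Chac1 chr2:119350992-119351291 (plus strand) and that of Trib3 chr2:152344011-152344310 (minus strand), all in GRCm38.p6. Of these 4 genes Atf3 rose, and Asns, Chac1 and Trib3 differed by 0.28, 0.13 and 0.03 without passing the test.

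The cAMP response element TGACGTCA, which ATF and CREB proteins bind, was in none of the 9 promoters, against 2.03% of genes. Its shorter core TGACG was in 5 of the 9 (Atf3, Atf4, Asns, Chac1 and Trib3), against 23.0% of genes. The shorter core in Atf3 begins at -7 and shares no base with its CARE core. The Bcl6 core TTCCTNGAA, added to the search after the values were seen, was in none of the 9, against 1.86% of genes. These are letter matches in a window of 300 bases, and binding was not measured.

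Upstream of ATF4, none of 17 tested genes for the eIF2 alpha kinases, their regulators, eIF2A and the eIF2 and eIF2B subunits was called. Their median difference was 0.03. Eif2s1, which encodes eIF2 alpha itself, had no probe set with that symbol alone and was not tested. The 4 kinases differed by 0.04 (Eif2ak1, HRI, the sensor of haem), 0.07 (Eif2ak2, PKR, the sensor of double-stranded RNA), -0.06 (Eif2ak3, PERK, the sensor in the endoplasmic reticulum) and -0.13 (Eif2ak4, GCN2, the sensor of uncharged tRNA). The largest differences were -0.19 for Impact, an inhibitor of GCN2 activation (adjusted p = 0.261), and -0.13 for Eif2b5, with 0.10 for Eif2b2 and 0.09 for Eif2s2 on the other side. These values are levels of messages, and phosphorylation of eIF2 alpha was not measured.

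Eif2ak2, singled out after its values were seen, split the KO arrays. It read 8.05, 8.07, 7.99 and 8.13 in the WT arrays and 7.55, 8.31, 8.28 and 8.36 in the KO arrays. KO replicate 1 was below every WT array and the other KO arrays above them, so that the difference was 0.07 over all arrays (adjusted p = 0.901) and 0.26 without KO replicate 1 (adjusted p = 0.0164).

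Among 15 tested bZIP factors of the ATF, C/EBP, CREB and NRF families none was called, and the median difference was -0.0025. Nfe2l2 (NRF2), the regulator of the oxidative stress response, differed by -0.23 (adjusted p = 0.133) and Atf6b by -0.06, while Cebpg, a partner of ATF4, differed by 0.09 and Atf7 by 0.05. The rise of Atf3 thus had no called counterpart among these relatives.

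Downstream of ATF4, none of 12 tested genes of amino acid and one-carbon synthesis was called, at a median of -0.02. Within serine synthesis the signs differed: Phgdh, the first enzyme, stood at 0.11 (adjusted p = 0.253) and Psph, the last, at -0.12 (adjusted p = 0.192). Cth, which makes cysteine, differed by 0.18 (adjusted p = 0.282), and Aldh18a1, of proline synthesis, by -0.11. None of 18 aminoacyl-tRNA synthetase genes was called, with Iars highest at 0.21 (adjusted p = 0.0919, or 0.0264 without KO replicate 1), Tars next at 0.09, and Yars lowest at -0.19 (adjusted p = 0.115), next to Sars at -0.15 (adjusted p = 0.157). Iars had 2 probe sets, and its values are those of the one with the higher mean only. Of 9 amino acid transporters none was called, from Slc6a9, a glycine carrier, at 0.25 (adjusted p = 0.222) and Slc7a3, a carrier of cationic amino acids, at 0.20 (adjusted p = 0.169) to Slc43a1 at -0.01 and Slc1a5 at -0.07.

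None of 20 further targets of ATF4 and CHOP was called, at a median of 0.00375. Bcl2l11 (BIM), a death-promoting protein that CHOP can induce, came nearest: its WT values were 8.72, 8.90, 8.84 and 8.94 and its KO values 9.02, 9.24, 9.19 and 9.27. The groups did not overlap, and the difference was 0.33 ± 0.069 (SE, adjusted p = 0.0524). Map1lc3b, a gene of autophagy, lay on the other side at -0.33 (adjusted p = 0.0822), followed by Gadd45g, a stress-induced regulator of growth arrest, at -0.21 (adjusted p = 0.353), while Trib1, a relative of Trib3, stood at 0.13. Map1lc3b had 2 probe sets, and its values here are those of the one with the higher mean only. In this list 5 of 20 genes (25%) did not overlap between genotypes, against 10.8% of all tested genes. Without KO replicate 1, 4 of the 20 (20%) were called, against 6.56% of all tested genes: Bcl2l11 and Tnfrsf10b, a death receptor, higher, and Map1lc3b and Nupr1 lower. KO replicate 1 lay below all other arrays for Tnfrsf10b (10.04) and above them for Nupr1 (7.49). Nupr1 was near the detection filter: KO replicates 2 and 3, at 6.92 and 6.87, were under their cutoffs of 6.96 and 6.97.

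Over these 6 lists together, 91 genes of the response were tested and none was called by limma, while 16 (17.6%) had an unadjusted p under 0.05, next to 16.6% of all tested genes. Positive differences numbered 43 (47.3%) and negative 48, with a median of -0.0025, where 41.1% of all tested genes had a positive difference. The groups did not overlap in 9.89% of the 91, next to 10.8% of all tested genes. Without KO replicate 1, 6 of the 91 were called (6.59%), next to 6.56% of all tested genes. The pooled shares of low p, of lack of overlap and of calls without KO replicate 1 were thus near the background. The 6 single lists ran from 0% to 25% without overlap and from 0% to 20% called without KO replicate 1. Both were highest in the list of further ATF4 and CHOP targets. Among the other stress lists below, the share without overlap was 25% under NRF2, 23.1% in hypoxia and 0% to 12.5% in the rest. The share called without KO replicate 1 was 23.1% in hypoxia and 0% to 8.33% in the rest.

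Of 24 tested regulators of mTORC1, the pathway on which Ddit4 and Sesn2 act, 1 was called (4.17%, against 1.32% of all tested genes). Castor2, a relative of the arginine sensor CASTOR1, read 9.55, 9.55, 9.46 and 9.59 in the WT arrays and 9.33, 9.31, 9.27 and 9.25 in the KO arrays. The groups did not overlap, and it fell by 0.25 ± 0.0462 (SE, adjusted p = 0.0423). The call held without KO replicate 1 and was lost without any other array (adjusted p up to 0.157), and with the mean over its probe sets the difference was -0.17 (adjusted p = 0.111). Without KO replicate 1, Seh1l, a subunit of GATOR2, was also called, in the opposite direction (0.22, adjusted p = 0.0341). The median of the list was -0.08.

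Other stress pathways gave similar counts. None of 20 genes for chaperones and other stress proteins of the endoplasmic reticulum was called. The most positive were Dnajb9 at 0.20 (adjusted p = 0.234) and Sdf2l1 at 0.19 (adjusted p = 0.097, or 0.042 without KO replicate 1). The most negative were Syvn1 at -0.13 and Dnajc3 at -0.17 (adjusted p = 0.145). None of 10 heat shock genes was called, with Dnaja1 at 0.17 (adjusted p = 0.233), Bag3 at 0.09, Hsph1 at 0.01 and Hspa4 at -0.0075. None of 8 genes under NRF2 was called, with Gclm at 0.07, Txn1 at 0.05, Gclc at -0.17 and the peroxide-removing Prdx1 at -0.18 (adjusted p = 0.133).

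Of 13 hypoxia genes 1 was called (7.69%, against 1.32% of all tested genes). Egln3, an oxygen-sensing prolyl hydroxylase, read 11.12, 10.95, 11.19 and 11.33 in the WT arrays and 11.52, 11.66, 11.91 and 11.75 in the KO arrays. It rose by 0.56 ± 0.0966 (SE), a 1.48-fold higher signal, with an adjusted p of 0.0303 and no overlap of the groups. Its call held without WT replicate 4 or KO replicate 1 and was lost without any of the other 6 arrays (adjusted p up to 0.109). Hk2, a hexokinase, had the same sign (0.26, adjusted p = 0.194). Ndrg1, which hypoxia induces, and Egln1, a prolyl hydroxylase like Egln3, had the opposite sign with no overlap of the groups, at -0.35 (adjusted p = 0.054) and -0.18 (adjusted p = 0.0799), and both were called lower without KO replicate 1 (adjusted p = 0.0166 and 0.0488). In this list 3 of 13 genes (23.1%) did not overlap between genotypes, against 10.8% of all tested genes. Without KO replicate 1, 3 of the 13 (23.1%) were called, against 6.56% of all tested genes. The median of the list was -0.03. Over all 11 lists, 2 of 165 tested genes were called, or 1.21% against 1.32% of all tested genes.

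The genes whose signal ran most like that of Atf3 over the 8 arrays, by Pearson's r and with no test, were Nsun3 (r = 0.98), Cyb5r3 (0.975), Nek6 (0.97), H2aw (0.967) and Camk4 (0.966). The least like were Rpl6 (-0.987), Syne1 (-0.973), Tha1 (-0.971), Bach2 (-0.97) and Nlrc3 (-0.967). Nsun3 modifies a mitochondrial tRNA, Nek6 is a mitotic kinase, Camk4 a calcium-dependent kinase of T cells and Bach2 a repressor of effector programmes in T cells. The arrays share genotype labels and 1 normalization, and 80 of 11925 genes reached an r of at least 0.9 and 87 of at most -0.9. All 10 named genes had groups that did not overlap, which an r this high with Atf3 favours.

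Of these 10 genes, 4 were called in the comparison of genotypes, against 1.32% of all tested genes. The genes were chosen for likeness to Atf3, whose groups lie apart, and that choice favours such calls. The count is therefore a description and no separate evidence. Nek6 was 8.42, 8.66, 8.74 and 8.68 in the WT arrays and 9.13, 9.43, 9.30 and 9.51 in the KO arrays, a difference of 0.72 (adjusted p = 0.00853) and close to that of Atf3 in size. H2aw (0.26, adjusted p = 0.03) and Camk4 (0.33, adjusted p = 0.0447) were higher and Nlrc3 (-0.27, adjusted p = 0.0423) lower. Nek6 passed in all 8 fits that leave out 1 array (adjusted p up to 0.0469), while the other 3 calls were lost without any array but KO replicate 1 (adjusted p up to 0.118 for H2aw, 0.152 for Camk4 and 0.16 for Nlrc3). Nsun3 and Cyb5r3, the genes of highest r, differed by 0.14 and 0.16 (adjusted p = 0.161 and 0.14).

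**Figure D3:**
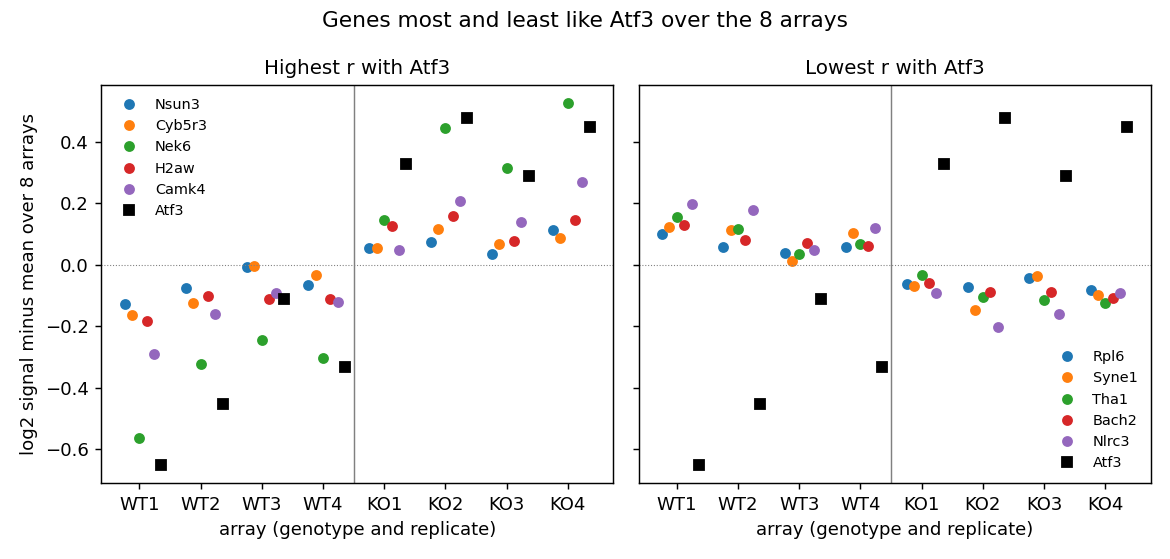
Log2 signal minus the gene's mean over the 8 arrays, for Atf3 (black squares) with the 5 genes of highest r (left) and the 5 of lowest r (right), by array. Nek6 moves over about the same height as Atf3, while the other 9 genes follow or mirror it at smaller size.

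The other 8 genes of the set ranked well below these. Asns had the highest r with Atf3 (0.751), followed by Sesn2 (0.578), Chac1 (0.576) and Psat1 (0.52), while Trib3 (0.148) and Ddit3 (-0.0627) were near 0 and Atf4 (-0.47) and Ddit4 (-0.549) negative. Within the groups, after their means were removed, r was 0.205 for Asns and 0.0482 for Atf4 and reached its highest, 0.699, for Ddit4, the gene with the opposite sign between groups. With 8 arrays these values are a description.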

How the data were processed

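RNA from 8 samples of cultured CD4 T cells was hybridised to Affymetrix whole-transcript arrays, 4 labelled WT and 4 labelled KO in the sample titles. Every value column was mapped to a sample by its title. The authors deposited 1 log2 value per probe set and array, and the tools were RMA and Partek per the submitters' processing notes. Versions, order of steps and genome build are not given in the sources used here. RMA as a rule equalises the distributions of arrays, which hides any change in the total RNA of a cell, and the array medians lay between 7.35 and 7.42. The deposited distributions were not fully equal. The 40th percentile over probe sets with 1 symbol ran from 6.91 in KO replicate 4 to 7.15 in KO replicate 1.

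The platform annotation gave 1 symbol to 21789 of 35556 probe sets, several to 1621 and none to 12146. The 21789 covered 19938 genes, each represented by its probe set of highest mean. A gene was tested where its value exceeded the array's 40th percentile, taken over the probe sets with 1 symbol, in at least 4 arrays, with Bcl6 kept, and all 9 members passed this filter in all 8 arrays. Genotypes were compared by limma's lmFit and eBayes (limma 3.58.1, R 4.3.3; two-sided, Benjamini-Hochberg over 11926 genes, threshold 0.05). Exact permutation tests of single genes used 4 against 4 values. Promoters came from RefSeq (GRCm38.p6), from 250 bases before to 50 after the start, and all 9 members matched.

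The members and gene lists were chosen with earlier results of these data known. The text names the 9 members, of each list the called genes or else up to 2 of the most positive and 2 of the most negative differences, the 5 genes most and 5 least like Atf3, and Bcl6. Exceptions are named where they occur, and the eIF2 alpha kinases, Hk2, Nkg7 and the listed genes called without KO replicate 1 were added after their values were seen. In 20 simulations of 11926 genes with 200 changed, the test recovered 85.9% of changes of 0.5 and 99.0% of changes of 1 (log2), with 5.08% of calls false, under normal errors of equal size in all arrays. Alternatives were quantile normalization, median centring, no filter and a filter at the 50th percentile, a trended robust prior, array weights, the mean over probe sets, a replicate block, each array left out, and, chosen after seeing the data, the percentile over all probe sets.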

Additional observations from a re-analysis of the deposited data

Results flagged for a closer look

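In 8 of the 138 groups of 4 arrays examined over 69 named genes, 1 array lay far from the other 3 by Dixon's criterion at the 95% level. Chance alone gives about 6.9 such groups. KO replicate 1 was that array in 3 of the 8. Among the 9 members this concerned Chac1, which read 8.02 in KO replicate 1 and 7.78 to 7.82 in the other KO arrays. Eif2ak2 and Tnfrsf10b, both named after their values were seen, read 7.55 against 8.28 to 8.36 and 10.04 against 10.32 to 10.37 in the same array. Aldh18a1 read 11.16 in KO replicate 4 against 11.26 to 11.27, and Sdf2l1 read 12.14 in the same array against 11.99 to 12.01. In the WT group, Phgdh read 10.48 in replicate 4 against 10.38 to 10.39, Txn1 read 14.01 in replicate 3 against 14.14 to 14.16, and H2aw read 12.49 in replicate 1 against 12.56 to 12.57.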

How the results depend on the processing

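Atf3 passed the threshold under all 17 alternatives, with a difference of 0.68 to 0.86 and an adjusted p of 0.000623 to 0.048. The number of members called was 1, became 2 (Atf3 and Asns) with array weights, and ran from 1 to 2 when 1 array was left out. The count over all genes was far less stable: 157 (77 higher, 80 lower) became 322 with quantile normalization, 78 with median centring (48 higher, 30 lower), 58 without a filter, 354 with a trended robust prior and 1980 with array weights. It ran from 31 to 782 with 1 array left out, with 782 without KO replicate 1, 31 without WT replicate 2, 34 without WT replicate 3, 32 without KO replicate 2, 34 without KO replicate 3, 68 without KO replicate 4 and 74 without WT replicate 1. The 2 calls among the listed genes became 1 with median centring, 1 with the mean over probe sets, 0 without a filter, 4 with the stricter filter, 8 with the trended prior and 30 with array weights, and ran from 0 to 12 with 1 array left out. Differences near 0 changed sign without passing at the changed sign: Ddit3 (0.00969 with quantile normalization, -0.04 to 0.0167 with 1 array left out), Trib3 (-0.0703 with array weights, -0.0483 to 0.095), Slc43a1 (0.026 with array weights, -0.0833 to 0.0333), Eif2ak2 (-0.0133 to 0.257, past the threshold only without KO replicate 1), Eif2ak3 (0.0427 with array weights, -0.101 to 0.0158), Hspa4 (0.0025 with median centring, 0.0187 with array weights, -0.0233 to 0.00583) and Hsph1 (-0.00417 to 0.0325). The cause of these changes was not tested. The titles give both groups replicate numbers 1 to 4, but deviations of same-numbered arrays correlated at 0.01, 0.14, -0.17 and 0.31, so the numbers were not taken to pair the samples. With the replicate block 36 genes were called (25 higher, 11 lower), 1 of the listed genes and 1 of the members, Atf3 (adjusted p = 0.047).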
